A study of Mus musculus with 12 samples.

Results

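The 8 genes described here carry the Sonic hedgehog signal: the ligand Shh, its receptor Ptch1, the signal transducer Smo, the transcription factors Gli1, Gli2 and Gli3, and the inhibitors Hhip and Sufu. They were chosen by name, and every array feature whose transcript accession belongs to one of them was taken. This gave 11 features, of 55681 on the array, and all 8 genes were among the 16181 genes tested. Hedgehog ligand is released by the epithelium of the growing hair follicle and is received by neighbouring epithelial and dermal papilla cells. Ligand bound to Ptch1 frees Smo, which acts in the primary cilium to turn the Gli proteins into activators, and Ptch1, Gli1 and Hhip are themselves targets of the signal and serve as readouts of it. In skin the pathway is known for driving the follicle into its growth phase (anagen).

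The labels give the tissue only as skin. Total RNA from 12 male mice, 1 array per mouse, was measured 12 days after plucking, a procedure that starts synchronous regrowth of hair, to study what Sox4 contributes to it. Sox4 is a SoxC transcription factor. Mice of a mixed C57Bl6/129Sv background (75% and 25%) were either wild type (WT) or Sox4 conditional knockouts (cKO). The labels analysed here name no promoter or Cre line behind the deletion. In Exp 1 the 3 WT mice were 69 to 72 weeks old and the 3 cKO mice 68 to 72 weeks. In Exp 2 the 3 WT mice were 18 to 20 weeks old and the 3 cKO mice 16 to 18 weeks, so the experiments cannot be told apart from age. The skin was whole tissue, in which fewer cells of a type and less RNA per cell cannot be told apart.

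Levels are log2 processed signals, set to 0 at each array's 75th percentile. They can be compared between mice for 1 gene but not between genes. Sox4 itself was 2.13 ± 0.18 in WT and -3.40 ± 0.69 in cKO skin (SD, n = 6 and 6), with no overlap (limma adjusted p = 3.75e-09). Its probe was not well above background in 2 of the 6 cKO mice. Between 53.9% and 62.6% of features were well above background on an array. cKO mouse 5, of Exp 1, was lowest in this share and stood apart on the second principal component (-73.6, against -7.5 to 40.9 in the other mice), so its values are given apart throughout. Markers of the tissue were present: the inner root sheath keratin Krt71 averaged 9.64 over the 12 mice, the epidermal keratin Krt5 8.78 and the dermal collagen Col1a2 9.42.

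Start-site sequences are shown for 3 members, Smo because the brighter of its 2 probes was lower and the other higher in cKO skin in both experiments, and Gli3 and Hhip because their levels followed each other over the mice. The windows hold 250 bases before and 50 after the start of transcription, from RefSeq on GRCm38.p6. Capitals mark every match, on either strand, to the core of the Gli binding site (CCACCC, or GGGTGG on the opposite strand) and to a Sox motif (AACAAAG, or CTTTGTT).

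Smo, chr6:29735247-29735546, plus strand: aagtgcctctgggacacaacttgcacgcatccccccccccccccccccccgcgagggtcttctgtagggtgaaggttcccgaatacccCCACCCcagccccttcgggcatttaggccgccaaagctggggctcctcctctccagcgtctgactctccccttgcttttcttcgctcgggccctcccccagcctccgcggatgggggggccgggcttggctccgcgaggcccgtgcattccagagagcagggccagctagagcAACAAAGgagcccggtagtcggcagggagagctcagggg

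Gli3, chr13:15463473-15463772, plus strand: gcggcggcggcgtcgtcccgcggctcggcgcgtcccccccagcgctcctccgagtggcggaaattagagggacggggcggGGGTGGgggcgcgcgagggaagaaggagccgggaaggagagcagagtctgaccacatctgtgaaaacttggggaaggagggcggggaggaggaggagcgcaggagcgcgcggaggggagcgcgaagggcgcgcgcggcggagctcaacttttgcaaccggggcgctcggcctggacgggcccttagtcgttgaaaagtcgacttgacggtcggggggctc

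Hhip, chr8:80057959-80058258, minus strand: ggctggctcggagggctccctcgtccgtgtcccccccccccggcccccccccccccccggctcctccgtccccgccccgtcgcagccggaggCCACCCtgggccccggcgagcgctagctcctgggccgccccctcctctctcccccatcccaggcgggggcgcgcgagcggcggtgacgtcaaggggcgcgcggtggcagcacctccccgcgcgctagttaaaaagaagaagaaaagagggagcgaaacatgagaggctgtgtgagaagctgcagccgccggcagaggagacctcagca

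Each of the 3 windows held the Gli core once, and the Smo window alone of them also held the Sox motif. In all 32851 windows of the table, 31.5% held the Gli core and 5.85% the Sox motif. The longer Gli consensus GACCACCCA, which contains the core, was in 0.253% of all windows and in none of the 6 member windows in the table. The Gli2 window held the core 2 times, and the windows of Ptch1 and Sufu held none of the motifs. A match describes these letters only.

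The ligand, Shh, was lower in every cKO mouse than in any WT mouse. It was read by 1 probe printed in 10 spots. Its mean intensity was 135, 119 and 167 units in WT mice 1, 2 and 3 (Exp 1), and 151, 148 and 139.9 in WT mice 4, 5 and 6 (Exp 2). In cKO mice it was 95.8 and 82.3 in mice 2 and 6 (Exp 1) and 109.7, 97.4 and 68.5 in mice 1, 3 and 4 (Exp 2). In cKO mouse 5 (Exp 1) it was 7.84, with all 10 spots between 4.84 and 13.5. Every WT mouse therefore lay above every cKO mouse, with or without cKO mouse 5. The probe was well above background in all mice but cKO mouse 5, whose array had 21.9 units as its lowest signal above background.

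On the log2 scale Shh was -1.79 ± 0.13 in WT and -2.95 ± 1.28 in cKO skin (SD, n = 6 and 6). The difference was -1.16 (SE 0.48), which did not pass the threshold of an adjusted p of 0.05 in limma (adjusted p = 0.376, unadjusted p = 0.0357). Without cKO mouse 5 the 5 other cKO mice were at -2.43 ± 0.18, and the difference was smaller but passed, at -0.63 (SE 0.10, adjusted p = 0.0302). The call thus rested on whether this mouse was included. It also depended on the scaling and on the features tested. Without the mouse and with each array scaled to its median, the difference was -0.70 (adjusted p = 0.121 in limma). Without the mouse and with every kept probe tested, not 1 per gene, it was -0.63 (adjusted p = 0.0702). With cKO mouse 5 raised to the lowest signal above background, the difference over 12 mice was -0.92 (adjusted p = 0.213).

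An exact permutation test of Shh, two-sided with genotypes exchanged within experiments, gave p = 0.005, the smallest that the 400 arrangements allow. Without cKO mouse 5 it also gave 0.005, the smallest of 200. Neither p was adjusted for the number of genes. Over 12 mice, genotypes that lie apart in the same direction in both experiments always give 0.005, so this p adds nothing to the lack of overlap. Shh was the only member whose WT and cKO mice did not overlap over all 12 mice, as was so for 1.26% of all genes, and the only one without cKO mouse 5, as for 1.75%. The difference was -1.60 in Exp 1 (SE 0.68), or -0.53 without cKO mouse 5 (SE 0.15), and -0.72 in Exp 2 (SE 0.68). Neither experiment passed alone (adjusted p = 0.426 and 0.977), and 3 mice against 3 cannot go below p = 0.1 in an exact permutation test. On slide 1, which held 3 WT and 3 cKO mice but not cKO mouse 5, the difference was -0.66. On slide 2, where cKO mouse 5 was the only cKO mouse of Exp 1, it was -2.23. On slide 1 both groups of Exp 2 held 1 mouse, and on slide 2 every group but WT of Exp 2 did. Fits within 1 slide therefore give sizes only. With slide as a block the difference was -1.26 (adjusted p = 0.302 in limma).

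**Figure D1:**
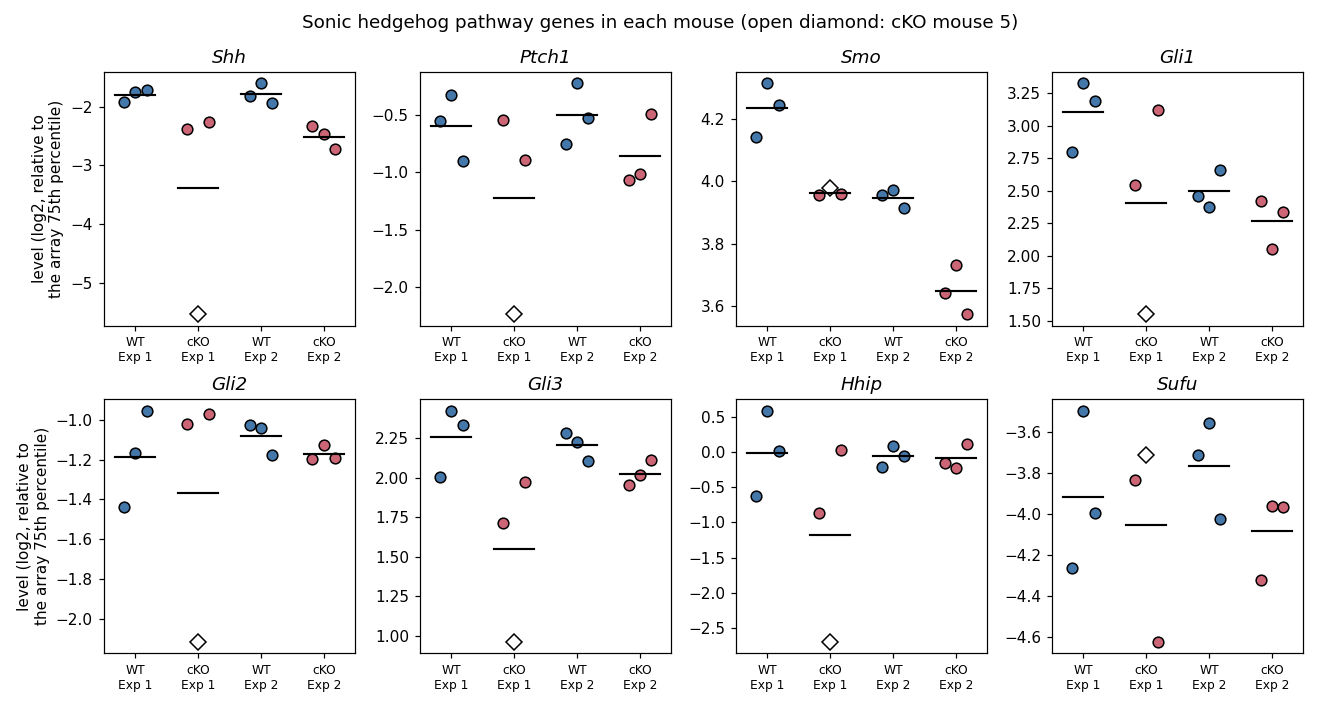
Level of each of the 8 genes in each mouse (log2, 0 at the array's 75th percentile) by genotype and experiment, with bars at group means of 3 mice and cKO mouse 5 as an open diamond. WT mice lie above cKO mice for Shh (-1.93 to -1.60 against -5.54 to -2.27), and cKO mouse 5 is the lowest mouse for 6 of the 8 genes.

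The receptor and readout Ptch1, which holds Smo in check when no ligand is bound, had 1 probe. Its intensity in WT mice ran from 291 to 384 units with a median of 334, and in cKO mice other than mouse 5 from 213 to 342. In cKO mouse 5 it was 77.2, below all others. The 2 genotypes overlapped. The difference was -0.50 (SE 0.27, limma adjusted p = 0.487), and -0.24 without cKO mouse 5 (SE 0.16, adjusted p = 0.572). The exact permutation p was 0.11 over 12 mice and 0.205 without that mouse.

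Smo, the membrane protein that passes the signal inward, differed in another way. The brighter of its 2 probes read 9051, 7917 and 10340 units in WT mice 1, 2 and 3 and 7717, 5745 and 6157 in cKO mice 2, 5 and 6 of Exp 1. In Exp 2 it read 8262, 7050 and 8025 in WT mice 4, 5 and 6 and 6901, 7174 and 5366 in cKO mice 1, 3 and 4. On the scaled levels all cKO mice lay below all WT mice of their own experiment, and cKO mouse 5 (3.98) stood with the others of its group (3.95 and 3.96).

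The difference of Smo was small and nearly equal in the experiments: -0.29 over both (SE 0.07, limma adjusted p = 0.116, unadjusted p = 0.00149), -0.27 in Exp 1 and -0.30 in Exp 2. Leaving out cKO mouse 5 gave -0.29 (adjusted p = 0.12), and the exact permutation p was 0.005 with and without it. Smo was at -0.33 on slide 1, -0.26 on slide 2 and -0.31 with slide as a block (adjusted p = 0.167). The second Smo probe differed in the opposite direction, by 0.36 (SE 0.15, unadjusted p = 0.0356, adjusted p = 0.469 over all kept probes). Averaging both probes gave 0.04, so the direction of Smo depended on the probe. Smo was also higher in Exp 1 than in Exp 2, by 0.29 in WT (SE 0.09, adjusted p = 0.139) and by 0.32 in cKO skin (adjusted p = 0.0601), with no overlap of the experiments in either genotype.

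Gli1 is the factor whose own transcription follows the signal most directly. Its single probe read 3554, 3984 and 4977 units in WT mice 1, 2 and 3 and 2928, 2327 and 3373 in WT mice 4, 5 and 6. In cKO skin it read 2909 and 3443 in mice 2 and 6, 2974, 2238 and 2276 in mice 1, 3 and 4, and 1068 in mouse 5. cKO mouse 5 was the lowest. On the scaled levels cKO mouse 6 (3.12) lay among the WT mice of Exp 1 (2.79 to 3.33). The difference was -0.46 (SE 0.23, limma adjusted p = 0.455), and -0.25 without cKO mouse 5 (SE 0.14, adjusted p = 0.522). The exact permutation p was 0.055, and 0.14 without that mouse.

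Within WT skin the 3 mice of Exp 1 were all above those of Exp 2 for Gli1, at 3.10 ± 0.28 against 2.50 ± 0.15 (SD, n = 3 and 3). The difference of 0.61 did not pass in limma (SE 0.33, adjusted p = 0.357).

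Gli3, which in the absence of ligand is cut to the main repressor of hedgehog targets, was 2.23 ± 0.15 in WT and 1.79 ± 0.42 in cKO skin (SD, n = 6 and 6). Its intensity ran from 2056 to 2752 units in WT mice (median 2214), from 1553 to 2184 in 5 cKO mice and was 710 in cKO mouse 5. The genotypes did not overlap in Exp 1 but did in Exp 2. The difference was -0.44 (SE 0.16, limma adjusted p = 0.309, unadjusted p = 0.019), and -0.30 without cKO mouse 5 (SE 0.10, adjusted p = 0.286). The exact permutation p was 0.01, and 0.025 without that mouse. On slide 1 Gli3 was at -0.41 and on slide 2 at -0.56. The difference was -0.71 in Exp 1, or -0.41 without cKO mouse 5, and -0.18 in Exp 2, and the test of the difference between them did not pass (-0.53, SE 0.32, adjusted p = 1).

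Gli2, the main activator downstream of Smo, was the member nearest to 0 over both experiments. It read 177 to 281 units in WT mice (median 227), 197 to 248 in 5 cKO mice and 84.2 in cKO mouse 5. The difference was -0.14 (SE 0.19, limma adjusted p = 0.793) and turned to 0.05 without cKO mouse 5 (SE 0.10, adjusted p = 0.858).

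Hhip, a surface protein that binds and sequesters the ligand, read 332 to 597 units in WT mice (median 492.9) with its brighter probe. Among cKO mice it read 273 and 402 in mice 2 and 6, 498.1, 460.4 and 486 in mice 1, 3 and 4, and 56.5 in mouse 5. The genotypes overlapped, and in Exp 2 their means lay together at -0.06 ± 0.14 and -0.09 ± 0.18 (SD, n = 3 and 3). The difference over both was -0.60 (SE 0.39, limma adjusted p = 0.561), and -0.22 without cKO mouse 5 (SE 0.23, adjusted p = 0.709). The second, dimmer probe gave -0.35 (SE 0.37) and was not well above background in cKO mice 5 and 6. Without cKO mouse 5 it gave 0.03 (SE 0.17).

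Sufu, which holds Gli proteins in the cytoplasm, was read near background by both probes. The probe used ranged from 26.7 to 40.6 units in WT and from 16.1 to 34.97 in cKO mice, with cKO mouse 6 lowest and cKO mouse 5 at 27.9. It was well above background in 10 of 12 mice, 5 of each genotype. The difference was -0.23 (SE 0.19, limma adjusted p = 0.645), and -0.31 without cKO mouse 5 (adjusted p = 0.54). The second probe gave -0.51 (SE 0.13, unadjusted p = 0.00233), not past the threshold over all kept probes (adjusted p = 0.231).

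As a group the 8 genes gave no call over 12 mice. In the averaged genotype comparison 0 of 8 passed the adjusted threshold, against 0.42% of all genes, and 3 of 8 (Shh, Smo and Gli3) had an unadjusted p under 0.05, against 12.2% of all genes. All 8 differences were negative with a median of -0.45, where 57.7% of all genes were negative and their median was -0.04. With the mean of each gene's kept probes 7 of 8 were negative, and Smo was at 0.04. Without cKO mouse 5, 7 of the 8 were negative and the median was -0.27, where that of all genes was -0.04. Then 1 of 8 passed (Shh), beside 106 of all 16181 genes, against 68 of them over 12 mice.

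In Exp 1, 0 of 8 passed (0.117% of all genes did) and 3 of 8 had an unadjusted p under 0.05 (11.3%), again Shh, Smo and Gli3. Those 3 genes were also the ones whose genotypes did not overlap in Exp 1, as for 12.9% of all genes. In Exp 2, 0 of 8 passed (0.0618%), 1 had an unadjusted p under 0.05 (Smo, 4.67%), and 2 did not overlap (Shh and Smo, 12.6%). The median difference was -0.66 in Exp 1, or -0.29 without cKO mouse 5, and -0.26 in Exp 2. The test of the difference between the experiments passed for 0 of 8 (0.00618%), with 0 of 8 at an unadjusted p under 0.05 (3.16%).

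**Figure D2:**
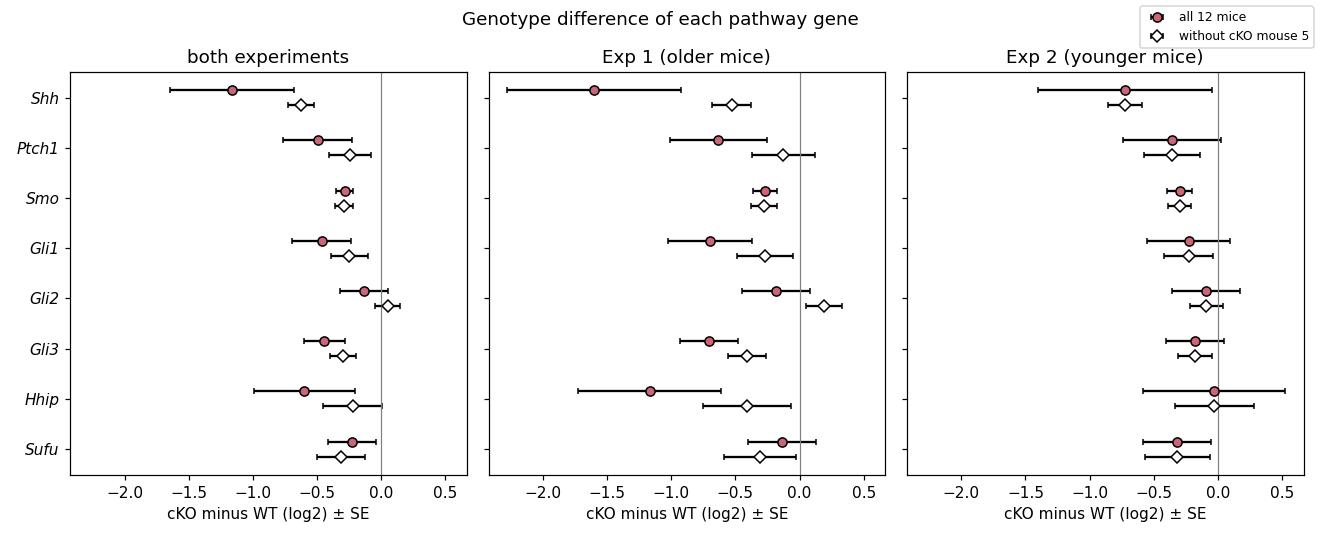
Difference between cKO and WT skin (log2, horizontal axis, bars are SE) for each of the 8 genes, over both experiments and within each, with all 12 mice (filled circles) and without cKO mouse 5 (open diamonds). Leaving out that mouse moved Shh in Exp 1 from -1.60 to -0.53 and left Smo at -0.28.

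Between the experiments, which differ in age, 0 of 8 passed within WT (0.84% of all genes) and 0 of 8 within cKO skin (9.98%). Smo alone had an unadjusted p under 0.05 in each, against 18.5% and 28.2% of all genes. In WT skin 2 of 8 genes did not overlap (Gli1 and Smo, 27.9%), and in cKO skin 1 of 8 (Smo, 31.2%). Shh in WT skin was -1.79 in Exp 1 and -1.78 in Exp 2, a difference of -0.01 (SE 0.68). With cKO mouse 5 left out, the difference in cKO skin was 0.19 for Shh.

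By the probes used, cKO mouse 5 was the lowest of all 12 mice for Shh, Ptch1, Gli1, Gli2, Gli3 and Hhip. It was the highest of the cKO mice for Smo (3.98) and Sufu (-3.71). By the second Sufu probe, though, it was the lowest of all 12 mice (-4.71) and not well above background. Relative to the next lowest cKO mouse it was at -5.54 against -2.72 for Shh, at -2.24 against -1.06 for Ptch1 and at -2.69 against -0.86 for Hhip. Its Sox4 level of -3.88 lay within the range of the other cKO mice, -4.26 to -2.55. The probe was not well above background in this mouse or in cKO mouse 6, the lowest at -4.26, so these levels are not measured sizes.

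Markers of follicle and other cells also set cKO mouse 5 apart. The mean level of 7 hair matrix genes, which mark the dividing cells that build the shaft and release Shh, was 0.95 in cKO mouse 5, 2.81 to 3.38 in the other cKO mice and 2.89 to 3.68 in WT mice. Hair shaft keratins, such as Krt86 and Krt33a, averaged 4.87 in cKO mouse 5 and 7.02 to 8.35 in both the other cKO and the WT mice. Melanocyte genes, such as Dct and Mlana, averaged 0.22 in that mouse and 2.89 or more in every other. The sebaceous gland, suprabasal epidermis and basal and bulge keratinocyte lists were at their highest in cKO mouse 5, at 2.33, 7.14 and 5.65. Inner root sheath and adipocyte lists were at their lowest there, at 6.35 and -0.27. Among the other cKO mice, mouse 4 of Exp 2 was lowest for Shh (-2.72) and highest for the matrix list (3.38). In WT skin the matrix list was also higher in Exp 2 (median 3.37) than in Exp 1 (3.20). Whether the list followed Shh over mice was not tested.

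For the genotype comparison 7 of 7 matrix genes were negative with a median of -0.48, and without cKO mouse 5 5 of 7 with a median of -0.10. Cell cycle genes were negative in 8 of 8 with a median of -0.40, and in 8 of 8 with a median of -0.35 without that mouse. Their mean level was 2.29 to 2.70 in WT mice and 1.70 to 2.35 in cKO mice, and none of the 8 passed (smallest adjusted p = 0.0567 in limma). Dermal papilla genes, the receiving mesenchyme, were negative in 7 of 11 with a median of -0.32, and in 8 of 11 with a median of -0.18 without cKO mouse 5. Over both experiments the median was -0.45 for hair shaft keratins, -0.79 for melanocyte genes and -0.56 for adipocyte genes, and -0.05, -0.26 and -0.08 without cKO mouse 5. It was 0.34 for sebaceous gland genes and -0.07 for inner root sheath genes, and 0.17 and 0.05 without that mouse. It was 0.10 for Schwann cell, 0.07 for suprabasal epidermis, 0.03 for basal and bulge keratinocyte and 0.01 for dermal fibroblast genes, and 0.07, -0.002, -0.03 and -0.02 without it. The part of these cell types in the hedgehog values was not tested.

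Skeletal muscle genes, with Tnni2 and Acta1 the brightest, varied most. Their mean level ran from -4.05 to 5.90 in WT and from -2.70 to 5.99 in cKO mice, and 10 of 10 were positive in the genotype comparison with a median of 2.51. Without WT mouse 5, whose mean was -0.90 against 5.05 and 5.90 in the other WT mice of Exp 2, the median was 1.38 over both experiments and went from 1.87 to -0.24 in Exp 2. With that mean as a covariate Shh was at -0.80 (SE 0.59, adjusted p = 0.998 in limma).

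**Figure D3:**
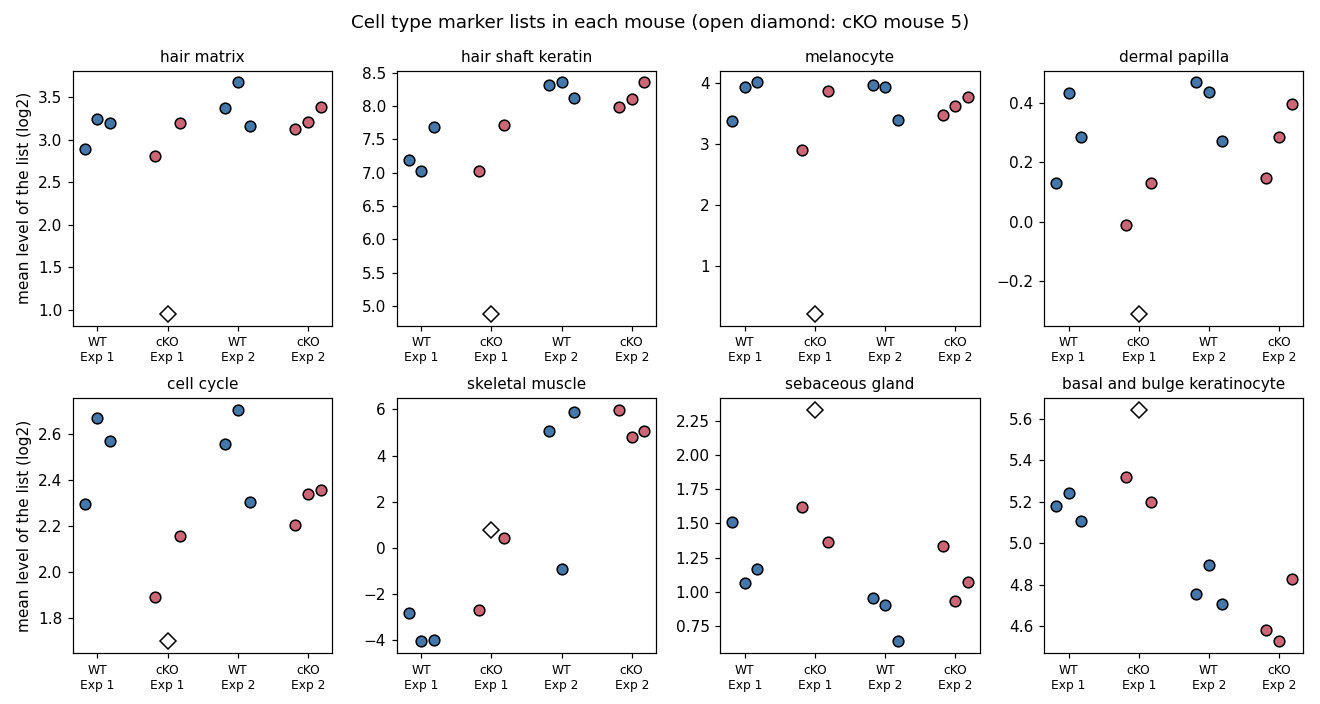
Mean level of 8 marker lists in each mouse (log2, 0 at the array's 75th percentile) by genotype and experiment, with cKO mouse 5 as an open diamond. That mouse is lowest for the matrix (0.95), shaft, melanocyte, papilla and cell cycle lists, and the muscle list ranges from -4.05 to 5.99 across mice.

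The other genes of the pathway were read in 4 lists. Over both experiments 0.42% of all genes passed and 57.7% were negative, with a median of -0.04. Of 10 genes for ligands and ligand release 0 passed and 5 were negative, with a median of -0.01 (6 and -0.07 without cKO mouse 5). Scube3, a secreted protein that helps release lipid-bound ligand, was at -0.90 (SE 0.29, limma adjusted p = 0.27). It ranged from -3.21 to -1.89 in WT mice and from -3.90 to -3.12 in 5 cKO mice, and was -4.64 in cKO mouse 5, so the genotypes overlapped. Its relative Scube1 was at -0.40 (SE 0.18, adjusted p = 0.404), and Hhat, the enzyme that adds palmitate to the ligand, at -0.26 (SE 0.10, adjusted p = 0.343). Disp2 was well above background in only 3 of 12 mice, so its difference is not a measured size.

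Of 7 receptors and co-receptors 0 passed and 4 were negative, with a median of -0.01 (6 and -0.05 without cKO mouse 5). Lrp2, an endocytic receptor that can bind Shh, was at -1.21 (SE 0.39, limma adjusted p = 0.268) and was well above background in 5 WT and 3 cKO mice. The co-receptors Boc, Cdon and Gas1, which present ligand to Ptch1, were at 0.01, 0.02 and 0.03.

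Of 22 genes of the cilium and the relay inside the cell 0 passed and 18 were negative, with a median of -0.09 (14 and -0.09 without cKO mouse 5). Kif7, the kinesin that organises Gli and Sufu at the tip of the cilium, was at -0.55 (SE 0.20, limma adjusted p = 0.314). Prkacb, a catalytic subunit of the kinase that marks Gli proteins for cutting, was at -0.23 (SE 0.08, adjusted p = 0.304). Arrb2, which helps move Smo into the cilium, was at -0.23 (SE 0.10), and Dync2h1, the motor of retrograde ciliary transport, at -0.21 (SE 0.09).

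Of 18 reported Gli targets that were tested 0 passed and 14 were negative, with a median of -0.09 (12 and -0.06 without cKO mouse 5). The cyclins Ccne1 and Ccnd1 were at -0.44 (SE 0.15, limma adjusted p = 0.272) and -0.38 (SE 0.15, adjusted p = 0.337). Sox18 was at -0.28 (SE 0.14).

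**Figure D4:**
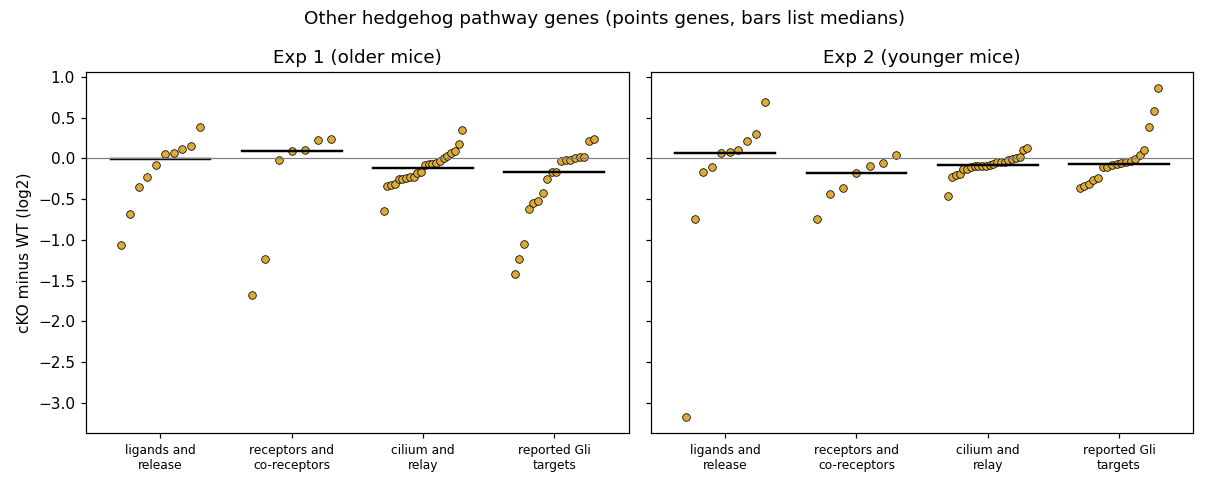
Difference between cKO and WT skin (log2, vertical axis) for each gene of 4 hedgehog lists, in Exp 1 and in Exp 2, with bars at the list medians. Medians lie between -0.18 and 0.09, and the point far below the others in Exp 2 is Disp2 (-3.17), which was near background in most mice.

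Calls in these lists came only from the comparison of experiments within cKO skin, where 9.98% of all genes passed. The glypican Gpc3, a surface protein that binds ligand, was lower in Exp 1, with a difference of -0.99 (SE 0.18, limma adjusted p = 0.017). Among the reported targets Jag2, a Notch ligand, was higher in Exp 1 by 0.56 (SE 0.11, adjusted p = 0.019) and Sox9, a factor of follicle stem cells, by 0.43 (SE 0.09, adjusted p = 0.0269). Nog, a secreted inhibitor of BMP, was lower, with a difference of -2.28 (SE 0.44, adjusted p = 0.019), with cKO mouse 5 lowest at -0.79 and 0.79 and 0.96 in the other Exp 1 mice, against 2.25 to 2.99 in Exp 2. In WT skin the same 4 genes (Gpc3, Jag2, Sox9 and Nog) differed in the same direction by -0.71, 0.39, 0.39 and -1.35, none past the threshold (adjusted p between 0.0751 and 0.136). The calls depended on the setting. With slide as a block Jag2, Nog and Sox9 did not pass (adjusted p = 0.0602, 0.0722 and 0.0886 in limma) and Gpc3 did (0.0496). On slide 1, with 1 cKO mouse of Exp 2, the differences were -0.86 (Gpc3), 0.62 (Jag2), -1.38 (Nog) and 0.46 (Sox9). Under median scaling Jag2 and Sox9 did not pass (0.0613 and 0.161), and without cKO mouse 5 Sox9 did not (0.053). Leaving out cKO mouse 3 or 4 ended all 4 calls (0.0562 to 0.0908), leaving out cKO mouse 1 ended those of Jag2 and Sox9, and leaving out cKO mouse 2 that of Sox9.

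Markers differed in the same comparison. Skeletal muscle genes had a median of -5.87 with 8 of 10 called, hair shaft keratins one of -1.50 with 0 of 8 called, and basal and bulge keratinocyte genes one of 0.85 with 5 of 9 called. With the muscle mean as a covariate 0 of all genes were called, against 1615 without it (4556 and 2843 at an unadjusted p under 0.05, without and with it). The 4 genes then had adjusted p of 0.183 to 0.217 in limma. Their differences did not shrink but their SE grew: Gpc3 -1.11 (SE 0.28), Jag2 0.56 (SE 0.17), Nog -2.48 (SE 0.70) and Sox9 0.45 (SE 0.15). The muscle mean of cKO mice was -2.70 to 0.80 in Exp 1 and 4.81 to 5.99 in Exp 2. Muscle and experiment can therefore hardly be told apart in this fit. The part of the other cell types in the 4 calls was not tested.

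How the members varied together over mice was described by correlation. WT and cKO mice formed separate clusters for Shh, so r of Shh with each member was taken within genotypes. Within WT skin (n = 6) r of Shh was 0.28 with Ptch1, 0.03 with Gli1, 0.67 with Gli2, 0.64 with Gli3, 0.56 with Hhip, 0.21 with Smo and 0.70 with Sufu. Within cKO skin (n = 6) it was 0.89, 0.78, 0.985, 0.92, 0.93, -0.39 and -0.58 in the same order. Over the 5 cKO mice other than mouse 5 they were -0.57, 0.59, 0.61, -0.56, -0.30, 0.70 and -0.60. Those with Ptch1, Gli3, Hhip and Smo changed sign, and that with Sufu was nearly the same. Each r pooled the experiments, which did not overlap for Gli1 in WT skin or for Smo in either genotype. The r with these genes there also carries the difference between experiments.

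Over all 12 mice 1 of the 21 pairs without Shh passed by Pearson's r, after Benjamini-Hochberg adjustment over all 28 pairs, and 0 by Spearman's rho. None passed by either without cKO mouse 5 (0 of 21, with 5 of all 28 at an unadjusted p under 0.05 by r). The pair was Gli3 and Hhip (r = 0.947, permutation p = 0.00025, adjusted p = 0.007; rho = 0.699, permutation p = 0.0135, adjusted p = 0.19), whose start-site windows are shown above. Without the 2 mice farthest from the median of Gli3, WT mouse 2 and cKO mouse 5, r was 0.67. It was 0.83 within WT and 0.99 within cKO skin, and 0.97 in Exp 1 against 0.23 in Exp 2. On slide 1 it was 0.88. Mice were exchanged across genotypes and experiments in the permutations, so their p also carry differences between the groups.

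Among the genes whose pattern over the 12 mice was most like that of Shh, of 16156 genes without a missing value, were Dlx1 (r = 0.98), Zfp618 (0.975), Galnt14 (0.975) and Fam20a (0.974). Without cKO mouse 5 these 4 genes had r of 0.81, 0.74, 0.74 and 0.86, and within WT skin 0.62, 0.48, 0.88 and 0.93. For Gli1 they were Tex9 (0.968), Lhx2 (0.953), Scube1 (0.953), Cfap69 (0.948) and Mutyh (0.945), with 0.91 to 0.95 without cKO mouse 5. These values describe the same arrays, those for Shh include the gap between the genotypes, and none was tested.

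**Figure D5:**
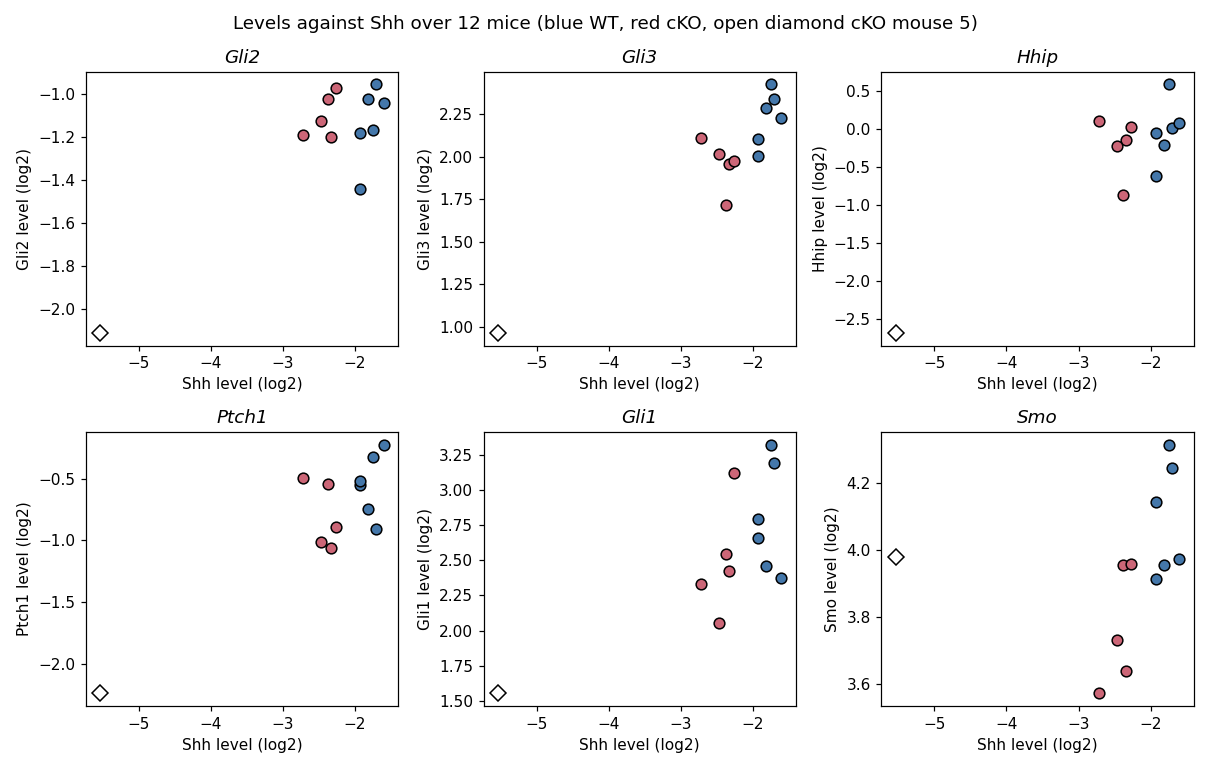
Level of 6 genes against the level of Shh in each of 12 mice (both axes log2, 0 at the array's 75th percentile; blue WT, red cKO, open diamond cKO mouse 5). cKO mouse 5 lies far to the lower left for all but Smo, where it is at 3.98.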

How the data were processed

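Skin RNA of 12 mice was measured on 1-colour Agilent arrays. Per the file headers, the deposited scanner files of Feature Extraction 11.5.1.1 give gProcessedSignal, an intensity after background subtraction and without scaling across arrays, and 0 or 1 flags of the software (unit other). The deposited value table of the authors holds log2 values on an uncentred scale (column medians 6.76 to 6.77) that ran in the direction of the arrays. With each probe's mean taken off, the column of cKO mouse 1 followed its own array at only r = 0.263. The other columns followed theirs at r = 0.697 to 0.81. How the values were normalized remains unknown here, and the table served only as an alternative. The submitters' processing notes name limma. Per the labels' protocols, RNA integrity numbers were 6.5 to 8.5.

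Outlier spots were left out, log2 signals of a probe's spots were averaged and each array's 75th percentile was then taken off. Probes well above background on at least 3 of 12 arrays were kept, and the brightest kept probe stood for a gene, named by matching its accession to the RefSeq table of GRCm38 (27509 of 55681 probes matched). Probe coordinates were not used. Members were fitted with all 16181 genes in limma 3.58.1 (R 4.3.3) with 4 group means (residual degrees of freedom 8, prior 2.3), two-sided, adjusted by Benjamini-Hochberg at 0.05. Correlations used 100000 resamples, with a smallest p of 1e-05. The fit was tested on simulated data. The labels name separate mice as replicates, and the number of arrays limits the precision.

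The members and lists were chosen with earlier results of these data known. Genes named were Sox4, the members, the list genes past the threshold or among the 4 smallest p of their list (Boc, Cdon and Gas1 were added after their values were seen), up to 2 bright genes of a marker list and the 5 genes most like Shh and Gli1. Some results under this rule are not reported here. The marker lists were hair matrix, hair shaft keratin, inner root sheath, dermal papilla, basal and bulge keratinocyte, suprabasal epidermis, dermal fibroblast, Schwann cell, skeletal muscle, sebaceous gland, melanocyte, adipocyte and cell cycle. Array names gave the slide as a batch: slide 1 held WT mice 2, 3 and 5 and cKO mice 1, 2 and 6, slide 2 held WT mice 1, 4 and 6 and cKO mice 4 and 5, and slide 3 held cKO mouse 3.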

Additional observations from a re-analysis of the deposited data

Results flagged for a closer look

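For 6 of the 11 features cKO mouse 5 stood apart within the 6 cKO mice, its gap to the next mouse being more than 0.625 of the range of the group. Its level was -5.54 for Shh (gap 0.861 of the range), -2.24 for Ptch1 (0.674), -2.11 for Gli2 (0.801), 0.96 for Gli3 (0.657), and -2.69 and -6.20 for the 2 probes of Hhip (0.653 and 0.77). Of 22 groups examined, chance flags about 1 in 20, and all flags fell on this mouse, whose features share 1 array.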

How the results depend on the processing

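Each contrast was refitted under 31 alternatives, 4 of them chosen after seeing the data: the deposited values with the column of cKO mouse 1 left out, slide as a block or median scaling without cKO mouse 5, and values raised to the lowest signal above background. The direction of Shh was the same in all 30 fits that measured it (-2.23 to -0.59). Over both experiments 1 member, Shh, was called without cKO mouse 5, beside 106 of all 16181 genes. It was also called with slide as a block without that mouse (-0.71, adjusted p = 0.0245 in limma), beside 72 of all genes. Apart from the fit within slide 2, taken up next, the other fits called 0 members. Leaving out 1 mouse thus gave 0 to 1 calls. Within slide 2 the median of the 8 members was -1.14 in Exp 1 and -0.99 for the difference between experiments. It was -1.03 between the experiments in cKO skin. Calls of members are not counted there, as every group on slide 2 but WT of Exp 2 held 1 mouse. There cKO mouse 5 is the lone cKO mouse of Exp 1, and lone mice are assumed to vary like the others (Shh -3.61 in Exp 1, -2.23 over both). Between experiments in cKO skin, 1 member was called with a trended robust spread (Smo, beside 1757 of 16157 genes). Leaving out a mouse gave 0 to 1 there (Hhip without cKO mouse 6, beside 2324 of 16181 genes). Gli2 turned to 0.0025 with the muscle covariate and to 0.0493 without cKO mouse 5 (-0.2365 to 0.0493 leaving out 1 mouse), Sufu to 0.23 within slide 2. With the mean of its probes Smo turned to 0.0538 in Exp 1, 0.0224 in Exp 2 and 0.0381 over both. Of 28 pairs of members 3 were called (1 without Shh), 16 under median scaling (11 without Shh) and 0 without cKO mouse 5, where Gli3 and Hhip had r = 0.773 (adjusted p = 0.0532). Where no construction is named, the cause was not tested. Mouse numbers are not stated as pairs, and only numbers 2 and 4 fall in the same experiment in both genotypes. For these, r of deviations from group means was -0.19 and -0.01, too few values to test a pairing. With a replicate block Shh was at -1.16 (adjusted p = 0.624) and all-gene calls went from 68 to 4; over all alternatives they ranged from 4 to 473, in Exp 1 from 1 to 1315 (as reported 19), in Exp 2 from 1 to 79 (as reported 10), for the difference between experiments from 0 to 392 (as reported 1), and between experiments from 0 to 963 in WT (as reported 136) and 0 to 2987 in cKO skin (as reported 1615). The planned normexp used gMedianSignal, and gave Shh -0.59 (adjusted p = 0.181 in limma). The value table gave -0.76 (adjusted p = 0.243) with its poorly matching column of cKO mouse 1 included. Sufu, Disp2, Lrp2 and, in cKO mouse 5, Shh lay near background, which limits their sizes.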
